A study of Homo sapiens with 2 samples.

Results

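A set of 10 genes of the extracellular matrix, of epithelial junctions and of the cell surface are described here in H1299 cells transfected either with miR-138 mimic or with negative control mimics (NC). They are PRG4, DCN, TGFBI, ADAMTS5, S100A4, TSPAN8, DSP, JUP, OCLN and MAL2, 10 of the 220 features with a single gene name among 243 features deposited. H1299 is a widely used cell line from a human non-small cell lung carcinoma, and a mimic is a synthetic duplex that delivers a mature microRNA. The miR-138 group and the NC group each held 1 array, made from RNA taken 48 h after lipid-mediated transfection of cells at 70% confluence in medium with 10% serum. Both groups carried a mimic, and cells without transfection were not analysed here.

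The 10 genes were chosen by role from a table whose values were already known. That table holds only features differing by at least 2-fold between the arrays, the smallest difference in size being 1.0 on the log2 scale. Membership was therefore selected on the same difference that is described, and the values below are a description with no test. With 1 array per mimic no value has a replicate error, and "higher" and "lower" refer to these 2 arrays. Each deposited value has 2 decimals, which leaves a difference uncertain by 0.01 from rounding alone. The genes are grouped as invasion genes by their known roles; the table holds no measurement of invasion.

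The extracellular matrix is a mesh of secreted proteins and proteoglycans around cells, and metalloproteases of the ADAMTS family cut its proteoglycans. Desmosomes tie the keratin filaments of neighbouring epithelial cells together, and tight junctions seal the gap between them. Carcinoma cells that leave an epithelium are known to change both sets of genes. A microRNA acts through its seed, a short stretch near its 5' end that pairs with messenger RNAs.

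The mature strand that carries the name miR-138 is shown because it is the sequence named by the treatment. The labels give the mimic only as miR-138, without an arm or a sequence. In RefSeq (GRCh38.p14) the same 23 bases of miR-138-5p arise from a pair of genes, MIR138-1 at chr3:44114234-44114256 and MIR138-2 at chr16:56858527-56858549, both on the plus strand. Capitals mark the seed, bases 2 to 8 from the 5' end.
miR-138-5p: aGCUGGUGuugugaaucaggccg

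The feature for MIR138-1 read 14.07 on the miR-138 array and 6.13 on the NC array, in the direction of the labels. Over all 243 features the log2 signal ran from 3.03 to 14.07 on the miR-138 array and from 3.0 to 12.67 on the NC array. Of the 243, 139 were lower with the miR-138 mimic (57.2%) and 104 were higher (42.8%). Of the 10 genes, 9 were lower and 1, OCLN, was higher. Because the genes were taken from this contrast, nothing is read from that count.

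**Figure D1:**
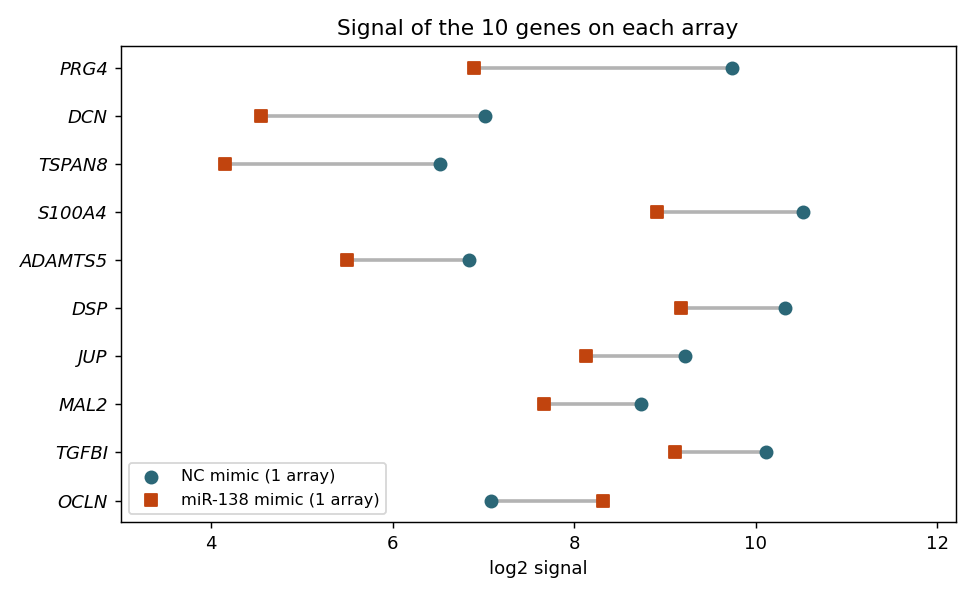
Log2 signal (horizontal axis) of each of the 10 genes (rows) on the NC mimic array (circles) and the miR-138 mimic array (squares), 1 array each, joined by a line. The square lies left of the circle for 9 genes and right of it for OCLN, and the longest line belongs to PRG4 (9.74 to 6.90).

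Among the matrix genes, both secreted proteoglycans had large differences. PRG4, the lubricating proteoglycan of joint surfaces, had a log2 signal of 6.90 on the miR-138 array and 9.74 on the NC array. The difference was -2.84, a 7.16-fold lower signal that left 14.0% of the NC value. It was the most negative of the 139 lower features. DCN encodes decorin, a small leucine-rich proteoglycan that binds collagen fibrils and the growth factor TGF-beta. Its log2 signal was 4.55 with miR-138 and 7.02 with NC, a difference of -2.47 (5.54-fold lower), at place 3 among the lower features. On the miR-138 array DCN was among the dimmest features of the table, with 1.65% of features below it. The files give no detection calls, so whether DCN was above background there was not tested.

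TGFBI and ADAMTS5 differed less. TGFBI, a secreted protein induced by TGF-beta that binds collagens and integrins, read 9.11 with miR-138 and 10.11 with NC. Its difference of -1.0 is the smallest that the table admits, so TGFBI lies on its limit, and features just outside that limit are not in the table. ADAMTS5, a metalloprotease that cuts the cartilage proteoglycan aggrecan, read 5.50 with miR-138 and 6.84 with NC, a difference of -1.34 (2.53-fold lower). The matrix genes thus included the most and the least negative differences of the 9 lower genes. ADAMTS5 and DCN, with TSPAN8, made up the 3 of 10 genes in the lowest 25% of mean level over the table (log2 6.57 or below).

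S100A4 and TSPAN8 are not matrix or junction genes. S100A4, a calcium-binding protein known for binding non-muscle myosin and promoting metastasis in mouse tumour models, read 8.91 with miR-138 and 10.52 with NC. The difference was -1.61, which left 32.8% of the NC signal. This feature was bright on both arrays, above 83.1% of features with miR-138 and 93.0% with NC. TSPAN8, a tetraspanin that organises adhesion proteins in the plasma membrane, read 4.15 with miR-138 and 6.52 with NC. The difference was -2.37 (5.17-fold lower), at place 5 among the lower features. On the miR-138 array 0.823% of features were dimmer than TSPAN8. As with DCN, its distance from background on that array was not tested.

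The junction genes lay on both sides. DSP encodes desmoplakin, the plaque protein that anchors keratin filaments to desmosomes, and read 9.18 with miR-138 and 10.32 with NC. Its difference was -1.14 (2.20-fold lower). JUP encodes plakoglobin, a relative of beta-catenin found in desmosomes and adherens junctions, and read 8.13 with miR-138 and 9.22 with NC, a difference of -1.09 (2.13-fold lower). These desmosomal partners were 0.05 apart in their differences. MAL2, a membrane protein needed for transport to the apical surface of polarised cells, read 7.67 with miR-138 and 8.73 with NC, a difference of -1.06. OCLN encodes occludin, a membrane protein of tight junctions, and read 8.32 with miR-138 and 7.08 with NC. It was the 1 gene of the 10 that was higher, by 1.24 (2.36-fold), at place 48 among the 104 higher features. RefSeq lists 1 OCLN pseudogene, OCLNP1, on the same chromosome. Probe sequences were not used here, so signal shared with it cannot be separated.

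**Figure D2:**
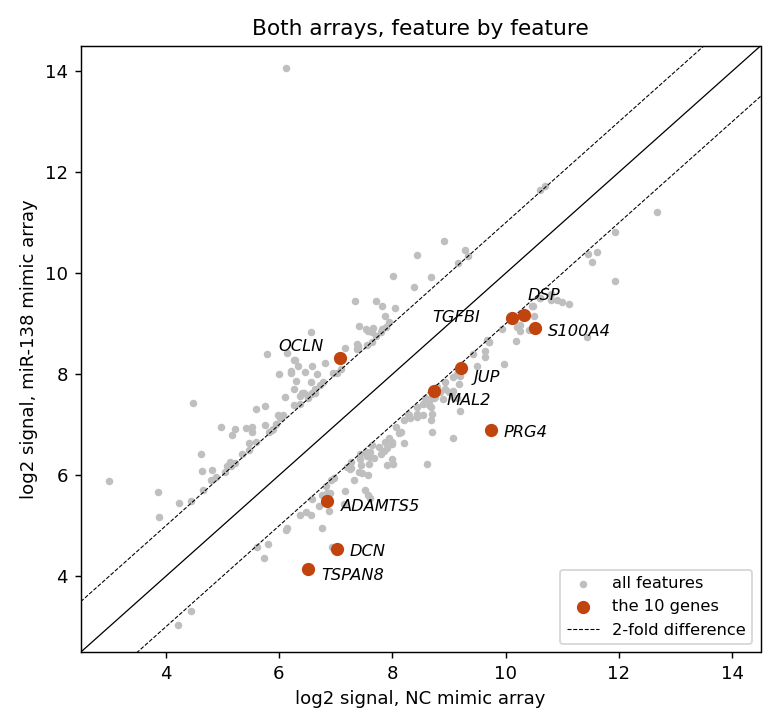
Log2 signal on the miR-138 mimic array (vertical axis) against the NC mimic array (horizontal axis) for all 243 features (grey) and the 10 genes (coloured), with the line of equal signal and dashed lines at a 2-fold difference. DSP, JUP, MAL2 and TGFBI lie at or just beyond the lower dashed line, PRG4, DCN and TSPAN8 well below it, and OCLN is on the other side.

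PRG4, DCN and TSPAN8 were lower by at least 2 on the log2 scale (4-fold), which 9 of all 243 features were (3.70%). S100A4 joined them at a limit of 1.5, passed by 30 features on the lower side (12.3%). DSP, JUP, MAL2 and TGFBI lay between -1.14 and -1.0. The median difference of the 10 genes was -1.24, beside -1.05 over all 243 features. For the 9 lower genes alone it was -1.34, beside -1.24 for the 139 lower features. Without replicates, the order of neighbouring genes such as DSP, JUP and MAL2 cannot be set against any spread.

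**Figure D3:**
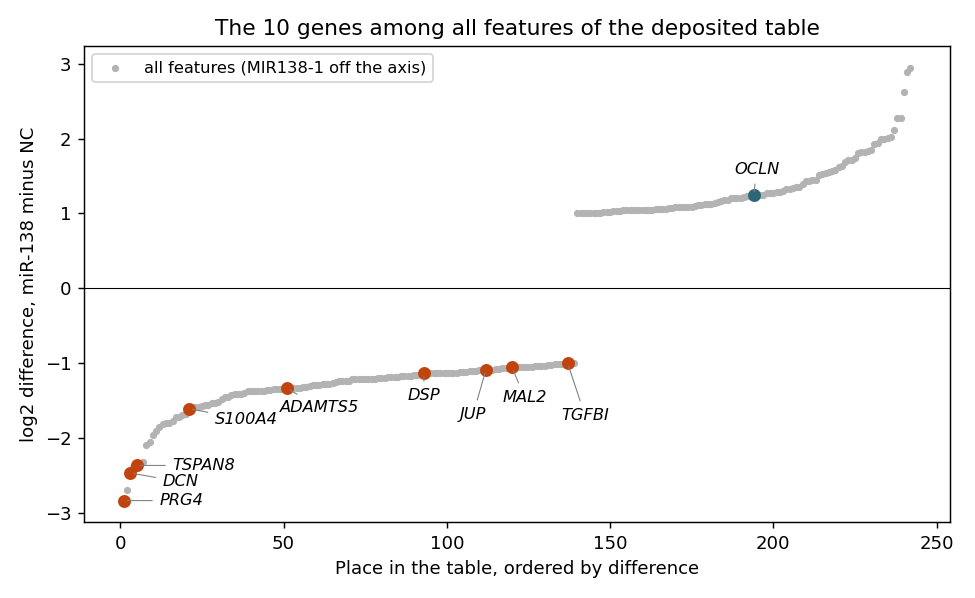
Log2 difference, miR-138 minus NC (vertical axis), of all features ordered from most negative to most positive (horizontal axis, place in the table), with the 10 genes coloured and MIR138-1 beyond the axis. PRG4 holds the first place, TGFBI sits at the edge of the empty band between -1 and 1, and OCLN is the single coloured point above 0.

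Promoter sequence was available for 7 of the 10 genes in the RefSeq table (GRCh38.p14), namely PRG4, TSPAN8, S100A4, DSP, JUP, TGFBI and OCLN. The 250 bases before the outermost annotated start of each are described. PRG4 and TSPAN8, both more than 4-fold lower, had 2 and 1 CG dinucleotides there, against a median of 11 over 35116 promoter windows of the same length. S100A4 had 7. DSP (33), TGFBI (20) and JUP (17), with differences near -1, and OCLN (24), the higher gene, all lay above that median. DCN, also more than 4-fold lower, had no sequence here, and a link of CG count to difference was not tested.

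Sequences of 4 promoters are shown to set the gene with the largest difference and S100A4 beside a pair of junction genes with opposite directions. Each reads 5' to 3' on the gene's strand and ends 1 base before the annotated start. Capitals mark CCAAT on either strand for PRG4, TATAAA for S100A4, and GGGCGG on either strand for DSP and OCLN.
PRG4, chr1:186296023-186296272, plus strand: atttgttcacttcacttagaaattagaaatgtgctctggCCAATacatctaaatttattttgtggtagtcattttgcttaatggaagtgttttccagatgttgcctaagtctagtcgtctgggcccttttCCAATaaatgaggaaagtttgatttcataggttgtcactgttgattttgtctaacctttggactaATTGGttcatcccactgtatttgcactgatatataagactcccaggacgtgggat
S100A4, chr1:153545807-153546056, minus strand: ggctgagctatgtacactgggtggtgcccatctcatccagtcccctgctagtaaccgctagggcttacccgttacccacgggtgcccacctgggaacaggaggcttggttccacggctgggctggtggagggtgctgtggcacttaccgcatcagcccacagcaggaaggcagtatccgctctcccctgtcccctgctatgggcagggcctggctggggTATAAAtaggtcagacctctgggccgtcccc
DSP, chr6:7541421-7541670, plus strand: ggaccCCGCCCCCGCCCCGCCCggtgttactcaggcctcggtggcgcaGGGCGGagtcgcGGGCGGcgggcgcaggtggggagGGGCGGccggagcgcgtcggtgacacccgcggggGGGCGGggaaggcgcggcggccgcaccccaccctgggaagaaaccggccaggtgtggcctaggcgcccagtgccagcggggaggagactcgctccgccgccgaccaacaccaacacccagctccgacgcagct
OCLN, chr5:69492297-69492546, plus strand: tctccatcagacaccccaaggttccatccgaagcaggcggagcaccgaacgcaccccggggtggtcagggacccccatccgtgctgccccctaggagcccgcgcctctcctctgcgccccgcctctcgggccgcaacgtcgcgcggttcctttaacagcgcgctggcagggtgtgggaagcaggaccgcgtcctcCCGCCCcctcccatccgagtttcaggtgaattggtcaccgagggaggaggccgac

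The PRG4 window held 3 CCAAT matches, and CCAAT occurred on either strand in 32.0% of all windows. It also occurred once in JUP and once in OCLN. TATAAA was present in S100A4 alone of the 7, from 31 to 26 bases before the start, and in 10.7% of all windows. GGGCGG occurred 7 times in DSP, 2 of these sharing a base, 3 times in TGFBI, 2 times in JUP and once each in OCLN and TSPAN8. It was found in 42.6% of all windows. CAGGTG, the E-box bound by the SNAI and ZEB repressors of epithelial genes, occurred 2 times in DSP, once in OCLN and once in S100A4, and in 17.5% of windows. DSP and S100A4 were lower and OCLN was higher, and any link of the motif to direction was not tested. TGANTCA, the AP-1 motif, had no match in the 7 windows and was present in 6.57% of all windows. These matches describe letters in a window and not bound sites.

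Most other genes of the matrix lists that are in the table were on the lower side as well. The lists were written as symbol patterns for matrix proteins, matrix proteoglycans, and matrix proteases with their inhibitors. They matched 173, 38 and 245 RefSeq symbols, in that order. Only 16 of these genes were in the table, of which 15 were lower and 1 was higher. List genes outside the table have no direction here. Leaving out PRG4, DCN, TGFBI and ADAMTS5, 11 of 12 were lower, with a median difference of -1.16, beside 57.2% lower over the whole table. The lists were written with earlier results of these data known, so this count is not independent evidence of a direction.

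Among the matrix proteins, 5 genes other than TGFBI were in the table and all 5 were lower, against 57.2% of the whole table. COL12A1, a collagen associated with fibrils, read 7.42 with miR-138 and 8.54 with NC (-1.12). FBLN1, a fibulin of elastic fibres and basement membranes, read 7.52 and 8.66 (-1.14). CCN5, a secreted CCN-family protein, read 7.41 and 8.65 (-1.24). The differences of these 3 genes lay within 0.12 of each other. EDIL3, an integrin-binding secreted protein, differed by -1.32 and the adhesion protein SVEP1 by -1.17.

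Among proteases and inhibitors in the table, 7 of 8 were lower, or 6 of 7 without ADAMTS5, beside 57.2% of the whole table. ADAMTS1, a relative of ADAMTS5 that also cuts proteoglycans, read 6.48 with miR-138 and 7.85 with NC, a difference of -1.37. It lay within 0.03 of the difference of ADAMTS5 (-1.34). In RefSeq these genes are neighbours on chromosome 21, with 0 protein-coding genes between them. Of the 9 features coded to that chromosome, 6 were lower, beside 57.2% of the whole table, and nothing is read from that count. Signal shared by probes of the pair was not tested. The lysosomal protease CTSZ (-1.13), the serine proteases PRSS23 (-1.20), PRSS56 (-1.07) and PRSS21 (-1.05) and the inhibitor SPINK13 (-1.19) were also lower. MME, the cell surface peptidase neprilysin, was the exception, at 8.84 with miR-138 and 7.80 with NC (1.04).

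Fewer genes of the junction and surface lists were in the table. DSP and JUP were the 2 desmosome genes in the table, OCLN the 1 tight junction gene, TSPAN8 the 1 tetraspanin, S100A4 the 1 S100 gene and MAL2 the 1 gene of apical trafficking. The surface adhesion list added MCAM, an adhesion molecule of the immunoglobulin family linked to melanoma spread, at 8.35 with miR-138 and 9.63 with NC (-1.28). It also added CD109, a surface protein that binds TGF-beta, at 6.36 and 7.60 (-1.24). Over these lists 7 of the 8 genes in the table were lower, beside 57.2% of the whole table. Of the 8, 6 belong to the 10 chosen genes, and the other 2, MCAM and CD109, were both lower. The adherens and gap junction list, the list of transcription factors of epithelial-mesenchymal transition and the TGF-beta pathway list had 0 genes in the table, so cadherins, SNAI, ZEB and TWIST genes and SMADs were not analysed here. EPPK1 (-1.21), a plakin related to desmoplakin, LMO7 (-1.10), a protein of adherens junctions, and MAMDC2 (-1.42), a matrix proteoglycan, were named after their values were seen.

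**Figure D4:**
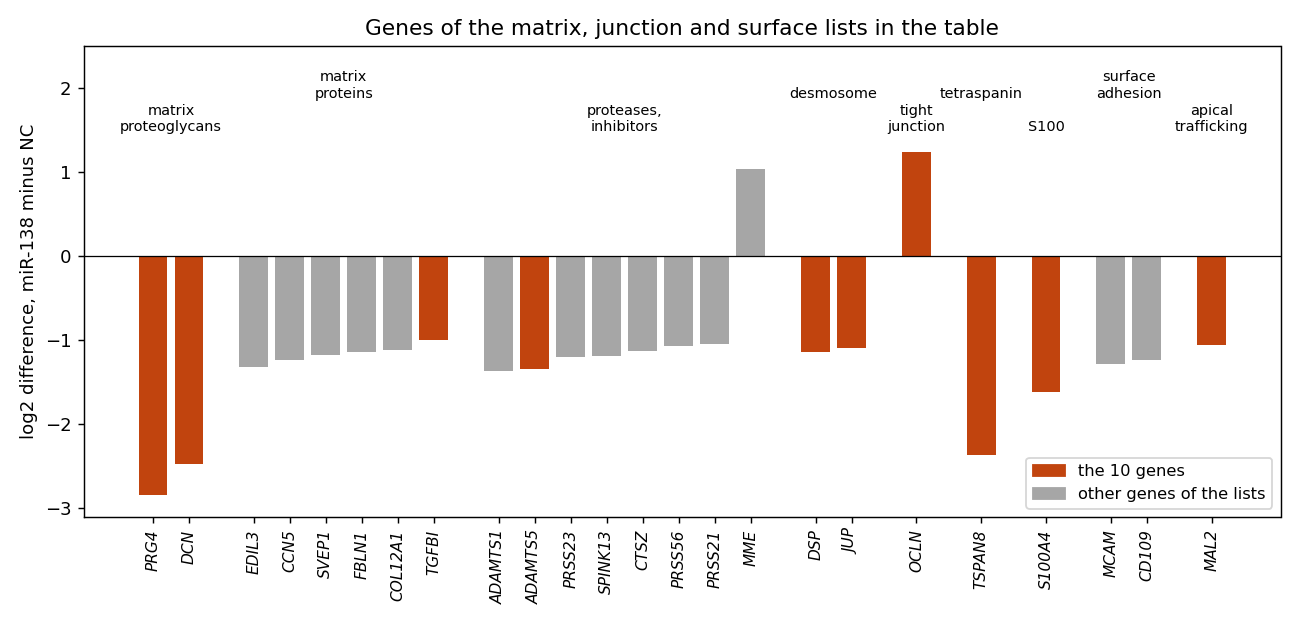
Log2 difference, miR-138 minus NC (bars from 0), of each gene of the matrix, junction and surface lists that is in the table, with the 10 genes coloured and other list genes grey. OCLN (1.24) and MME (1.04) are the bars above 0, and the other list genes in grey lie between -1.37 and -1.05.

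DCN and S100A4 were also the 2 genes of a 16-symbol fibroblast marker list found in the table. Both were lower, beside 57.2% of the whole table. Both were already among the genes chosen from this contrast, so nothing is read from that count. The endothelial, immune and lung epithelial marker lists had 0 genes in the table, so these lists gave no check of the cells' identity. SCGB3A2, a secretoglobin of airway epithelium that is on none of the lists and was named after its values were seen, read 5.21 with miR-138 and 6.37 with NC (-1.16), in the lowest 25% of mean level. In cells of a bulk culture, fewer cells expressing a gene and less of its RNA in each cell cannot be told apart.

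For each of the 10 genes, the most similar feature with a single gene name was found by Euclidean distance over both log2 signals, that is over 2 arrays. Features with several gene names or none were not searched. JUP was closest to PGP, at 8.12 with miR-138 and 9.23 with NC (distance 0.014). MAL2 was closest to ARID5B (0.070) and DCN to SORBS2 (0.089). TSPAN8 was also nearest to SORBS2, at 0.608, and PRG4 was nearest to MAP2K6, at 0.677. These 2 distances were the largest of the 10 among the features searched. S100A4 was nearest to SLC27A2 (0.117), ADAMTS5 to PDE7B (0.144), DSP to CMBL (0.182), TGFBI to EMP2 (0.198) and OCLN to CPEB4 (0.211). None of the 10 genes was nearest to another of them.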

How the data were processed

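The deposited table held 1 column of log2 signal per array, 1 for each mimic, made by the authors with Affymetrix Expression Console per the submitters' processing notes. Version, summarisation and normalization were not given in the sources used here, and the log2 base was inferred from the range of the deposited values. The table is limited to differences of at least 1 in size, so shares of the whole array and depth cannot be computed. Gene names came from the platform annotation: 220 features had 1 gene, 10 several and 13 none here, and 215 were matched by gene identifier to RefSeq. Each difference is miR-138 mimic minus NC mimic. With 1 array per group no test was made. The members and the 16 gene lists were chosen with earlier results of these data known. Named by rule were the 10 members, list genes in the table, the nearest feature with 1 gene to each member, and MIR138-1. EPPK1, LMO7, MAMDC2 and SCGB3A2, all lower, were named outside these rules after their values were seen. Motifs were searched on both strands. Counting and motif search were tested on simulated data. Python 3.11.15, NumPy 2.4.6, pandas 2.3.3 and Matplotlib 3.10.9 were used. Alternatives were centring, level filters, larger limits, features with 1 gene and the linear scale.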

Additional observations from a re-analysis of the deposited data

How the results depend on the processing

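Setting the median over the 243 features to the same value on both arrays shifted all log2 differences up by 0.06. No difference was smaller than 1.0 in size, so a shift of 0.06 could turn no direction. It moved TGFBI to -0.94, under the 2-fold limit, put MAL2 at -1.0 on it, and left 8 genes lower by at least 1. Over the whole table, 121 features were then lower and 104 higher by at least 1, against 139 and 104 before centring. The median of the 10 became -1.18. Without the lowest 25% of mean level, DCN, TSPAN8 and ADAMTS5 dropped out, 6 genes were lower and 1 higher, and the median was -1.09. The whole table then had 113 lower and 69 higher features, in place of 139 and 104. A limit of 1.5 left 4 of the 10 genes lower and 0 higher, beside 30 of all 243 features lower (12.3%). It left 2 genes lower and 0 higher in the matrix lists, and 2 lower and 0 higher in the junction and surface lists. A limit of 2 left 3 of the 10 lower and 0 higher, beside 9 of 243 features lower (3.70%). The only higher genes among these, OCLN (1.24) and MME (1.04), lie under both limits. Features of the whole table higher by these limits were not counted, so the 0 higher has no share beside it. These smaller counts follow from fewer genes being counted. On the linear scale, which also depends on each feature's own brightness, S100A4 took place 1 by size of difference and PRG4 place 2, DSP moved to place 3 and TGFBI to place 4, while DCN moved to place 8 and TSPAN8 to place 9. No paired analysis was possible because each mimic had 1 array. For the same reason no replicate could be left out. Precision is limited by the number of arrays, and for DCN and TSPAN8 by signal near the bottom of the scale.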
